A study of Canis lupus familiaris with 4 samples.

Results

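The imprinted DLK1-DIO3 miRNA cluster was examined in the extracellular vesicles (EVs) that canine mammary carcinoma cells release. Its members were the rows of the deposited miRNA table that carry one of 44 miRNA numbers known from this locus in mammals, together with the predicted miRNA cfa_novel_141, whose precursor lies in the same stretch of dog chromosome 8. This gave 40 of the 673 rows, 39 of them known canine miRNAs. A row was found by name for 33 of the 44 numbers, and none for the other 11. Predicted rows listed with the seeds of human miR-431-5p, miR-655-3p and miR-656-3p were found in the locus, and their levels are given below.

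Small RNA was sequenced from EVs of CHMp, a cell line from a primary mammary adenocarcinoma, and of CHMm, a line from a metastasis. EVs of CHMp cells are called pTDEs and EVs of CHMm cells mTDEs, with 2 libraries for each. The labels give no transgene or added treatment for either line. The study also made luciferase-expressing cells of both lines, and does not say whether the sequenced EVs came from these or from the parental cells. All EVs were collected from medium without serum after growth in medium with fetal bovine serum. Each tumor stage is thus represented by 1 cell line, and the study states that both lines come from 1 dog. It calls its libraries biological replicates without saying whether they came from separate cultures. The p-values below set the difference between the lines against the spread between these libraries, moderated over all rows tested.

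In mammals, this domain is controlled by parental imprinting. The protein-coding genes DLK1, RTL1 and DIO3 are expressed mainly from the paternal chromosome, and long noncoding RNAs such as MEG3, with the miRNAs and small nucleolar RNAs embedded in them, mainly from the maternal one. A smaller group of miRNAs lies around RTL1 and is transcribed antisense to it, and a long array of miRNAs follows downstream. The miRNAs of the array are thought to be cut from shared long transcripts and are best known from placenta, brain, muscle and mesenchymal cells.

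In the RefSeq annotation of the dog assembly UU_Cfam_GSD_1.0, 38 of the 39 known rows were found by name, in 1 run between DLK1 and DIO3. miR-369 was not matched by name. The order was miR-493, miR-665, then miR-433, miR-127, miR-432 and miR-136 around RTL1, then miR-370, and further on the array from miR-379 to miR-410. The table has 7 rows near RTL1 and 33 in the array, with miR-369 and cfa_novel_141 counted in the array. That assembly is not the build used for the deposited table, so it was used for order only.

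The sequence of cfa_novel_141 is shown because this predicted miRNA of the locus was found in both pTDE libraries and listed at 0 in both mTDE libraries. It is set beside cfa_novel_131, another predicted row of the same locus whose level did not follow it. The seed, bases 2 to 8, is in capitals.
cfa_novel_141: aAUAUUAUacagucaaccucu
cfa_novel_131: aUAAUACAugguuaaccucuuu
The precursor of cfa_novel_141 is placed on the plus strand at chr8:69295123-69295178 of CanFam3.1, with the mature form at its 3′ end in capitals:
cfa_novel_141 precursor: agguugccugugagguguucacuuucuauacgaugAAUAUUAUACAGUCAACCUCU
The precursor of cfa_novel_131 lies on the same strand at chr8:69278524-69278583, 16539 bases before it. The seed of cfa_novel_141 is listed with the prediction as that of human miR-656-3p, a miRNA at the far end of the human array, and the seed of cfa_novel_131 as that of human miR-655-3p. Both mature forms share the run aaccucu of 7 bases near their 3′ ends but differ in their seeds, and each seed was found in 1 of the 165 predicted rows.

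Levels are given as read counts scaled to a library total of 1000000 (CPM), recovered from the deposited values, and a read is the smallest step of CPM found in a library. The libraries held about 6296040 and 5053312 reads in pTDEs and 3457456 and 2330459 in mTDEs. Low values were distributed differently in the lines. Of the rows above 0, 16.4% and 21.0% had 1 to 15 reads in the pTDE libraries, against 3.59% and 6.33% in the mTDE libraries, and the lowest 10% of the rows above 0 ended at 6.94 and 8.58 CPM in mTDEs against 1.61 and 1.30 CPM in pTDEs. Among rows at 10 to 35 CPM in mTDE replicate 2, 54 of 91 (59.3%) were at 0 in mTDE replicate 1, and 24 of 82 (29.3%) the other way round. Most of these rows at 0 were predicted miRNAs. For members at this level the counts were 5 of 9 and 0 of 9. In pTDEs, 1 of 45 and 0 of 60 rows at this level in one library were at 0 in the other. Reads without molecular identifiers are not independent molecules, so a value of 0 in an mTDE library is a weaker bound than its limit of 3 reads, which is 0.868 or 1.29 CPM. For this reason no ratio of CPM is given against a line at 0. Fitted log2 fold changes of such rows depend on the pseudocount of 1 CPM and are no bound.

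The identity of the lines was checked against epithelial miRNAs. The miR-200 family with miR-141, miR-205 and miR-203 summed to 73.9 and 104 CPM in pTDEs and to 23718 and 26413 CPM in mTDEs. All 7 rows were above 0 in both mTDE libraries, and 3 of them, miR-200c, miR-205 and miR-203, were above 0 in pTDEs. The pTDEs of a line named as a carcinoma thus held little of these epithelial markers. The mTDE sums were close, but some single rows were not. In mTDE replicates 1 and 2, miR-203 was at 950 and 2535 CPM and miR-429 at 1747 and 3493 CPM. miR-205 was at 5041 and 3273 CPM and miR-200b at 1017 and 705 CPM. Closer values were found for miR-141, 76.1 and 77.7 CPM, miR-200a, 280 and 261 CPM, and miR-200c, 14606 and 16067 CPM.

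Cluster miRNAs were detected in EVs of both lines at low to moderate levels. Of the 40 rows, 32 were above 0 in at least 1 library, and 13 were above 0 in all 4. The rows at 0 in every library were miR-136, miR-370, miR-493 and miR-665 of the group near RTL1 and miR-300, miR-329a, miR-539 and miR-544 of the array. In pTDE replicates 1 and 2, 28 and 31 rows were above 0, and in mTDE replicates 1 and 2, 13 and 21 were. Over the whole table, 342 and 347 rows were above 0 in pTDEs and 306 and 332 in mTDEs. Of the 32 members above 0, 21 were above 0 in an mTDE library, beside 388 of all 461 rows above 0. No row was above 0 in mTDEs and at 0 in both pTDE libraries. By mean CPM, the highest member ranked 136 among all rows in pTDEs and 146 in mTDEs. A miRNA level in an EV preparation cannot separate fewer vesicles that carry it from fewer copies per vesicle.

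**Figure D1:**
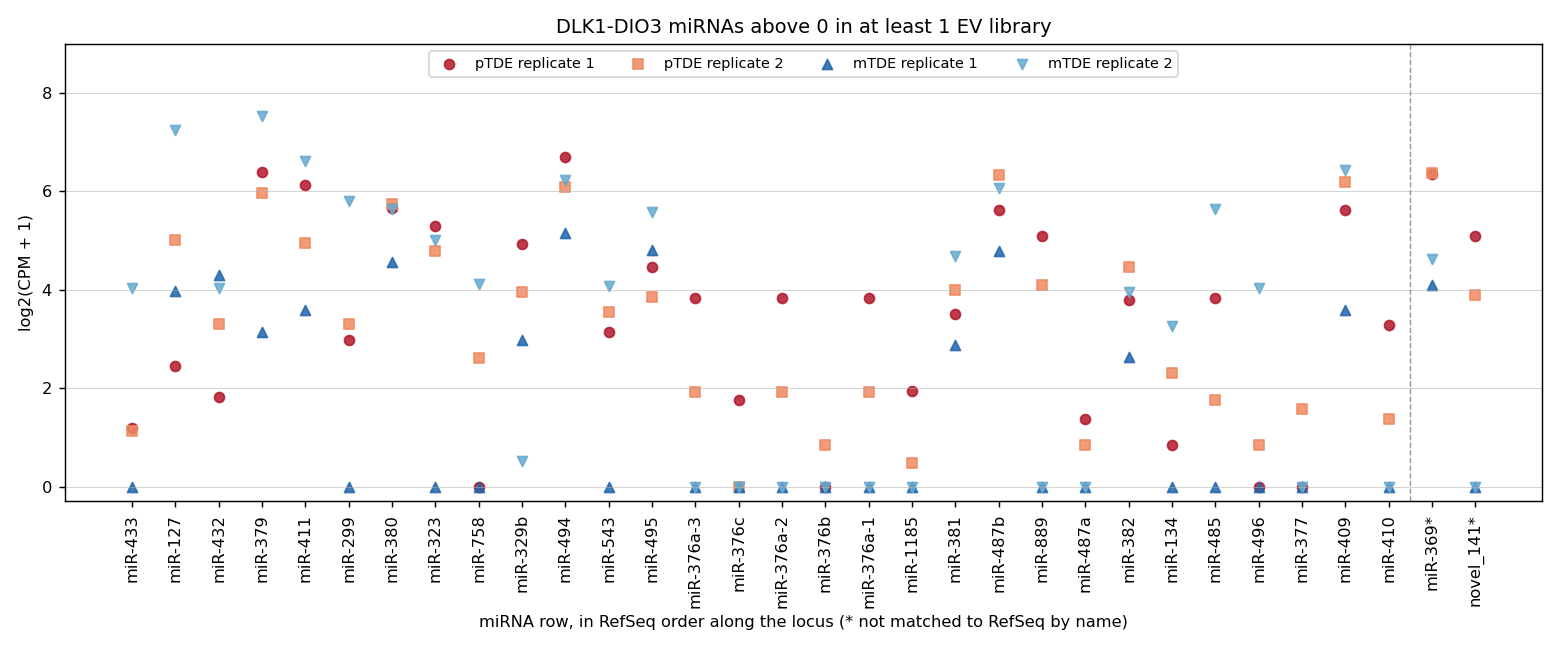
Level of each of the 32 cluster rows above 0, as log2(CPM + 1) on the vertical axis, in RefSeq order along the horizontal axis, with 1 point for each of the 4 EV libraries. The mTDE replicate 2 points lie above those of mTDE replicate 1 for most rows, and a block of rows around miR-376a, with miR-889 and miR-410, has both mTDE points at 0.

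The summed level of the cluster did not separate the lines, because the mTDE libraries stood far apart. The 40 rows summed to 752 and 655 CPM in pTDE replicates 1 and 2 and to 209 and 1039 CPM in mTDE replicates 1 and 2. The sums averaged 704 ± 69.0 CPM over the pTDE libraries and 624 ± 587 CPM over the mTDE libraries (SD, n = 2 each), and both pTDE sums lay between the mTDE sums. The log2 ratio of the means, pTDEs over mTDEs, was 0.17. Without mTDE replicate 1 it was -0.56, and without mTDE replicate 2 it was 1.75, so the direction rested on 1 library. The cluster made up 0.0752% and 0.0655% of all CPM in pTDEs and 0.0209% and 0.104% in mTDEs.

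**Figure D2:**
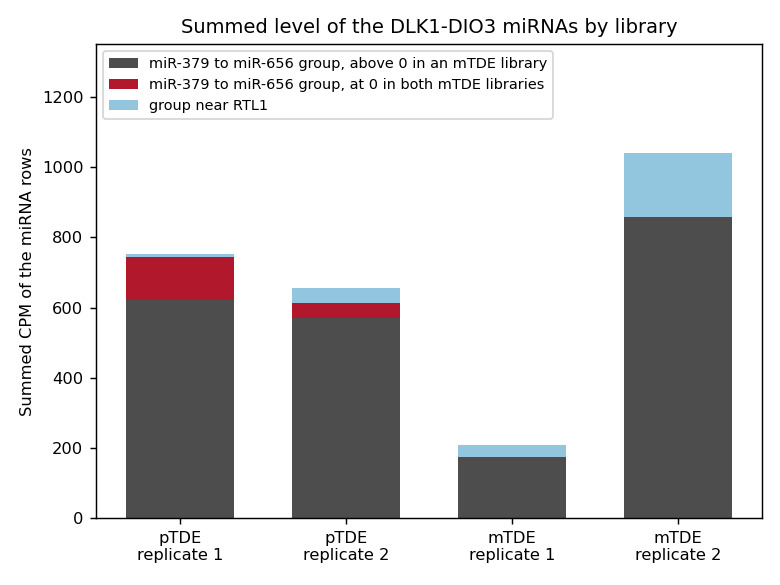
Summed CPM of the cluster rows in each EV library on the vertical axis, split by color into array rows above 0 in an mTDE library, array rows at 0 in both mTDE libraries and rows near RTL1. The total was 209 CPM in mTDE replicate 1 and 1039 CPM in mTDE replicate 2, on either side of the pTDE totals of 752 and 655 CPM.

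The difference between the mTDE libraries was spread over most of the cluster. Of the 21 rows above 0 in an mTDE library, 17 (81.0%) were higher in replicate 2 by more than 1 on the log2(CPM + 1) scale, where 44.8% of all 388 such rows were. In the other direction the member count was 1 of 21, miR-329b, against 19.8% of all rows. The median difference, replicate 2 minus replicate 1, was 3.03 over the members and 0.66 over all rows. Between the pTDE libraries the median difference, replicate 2 minus replicate 1, was -0.23 over the 32 members above 0 and 0.03 over all rows. The rows at 0 in mTDE replicate 1 and above 0 in replicate 2 were miR-299, miR-323, miR-758, miR-543, miR-134, miR-485, miR-496 and miR-433, and no row showed the reverse. Of these 8, miR-299 had the highest value in replicate 2, 54.9 CPM, against 6.84 and 8.91 CPM in pTDEs.

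Sums of some other miRNA groups were also higher in mTDE replicate 2. The mesenchymal miRNAs miR-143, miR-145, miR-199 and miR-214 (6 of 6 rows above 0) summed to 152 CPM in mTDE replicate 1 and 1127 CPM in replicate 2, a 7.44-fold difference beside 4.98-fold for the cluster. The muscle miRNAs, with 7 of 9 rows above 0 in any library and miR-208a and miR-208b at 0 in all, summed to 19.7 and 260 CPM. In mTDEs 4 of these rows were above 0, and in replicate 1 only miR-499 was. The blood miRNAs, with 3 of 4 rows above 0 and miR-144 at 0 in all libraries, summed to 675 and 2898 CPM. In pTDEs the mesenchymal sum was 1552 and 1498 CPM, the muscle sum 515 and 756 CPM, and the blood sum 245 and 853 CPM. The rows of a group did not all follow its sum. miR-214 was at 6.94 CPM in mTDE replicate 1 and 1.71 CPM in replicate 2, miR-499 was at 19.7 and 15.4 CPM, and miR-1 was at 0 in both. The mesenchymal sum holds 3 miR-199 rows of equal values. With rows of equal values counted once, the difference was 9.34-fold for the mesenchymal and 7.55-fold for the muscle group, with 3 of 4 and 2 of 3 distinct rows above 0 in mTDEs higher in replicate 2. The epithelial sum differed by 1.11-fold between the mTDE libraries. The part of these groups in the cluster's difference was not tested.

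**Figure D3:**
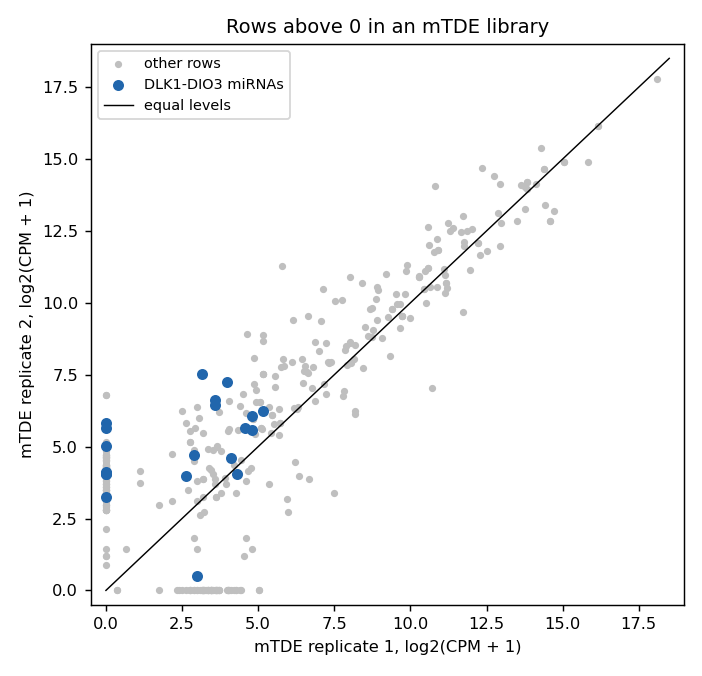
Level in mTDE replicate 2 (vertical axis) against mTDE replicate 1 (horizontal axis), both as log2(CPM + 1), for the 388 rows above 0 in an mTDE library, with cluster rows in blue and a line of equal levels. Of the 21 cluster rows, 17 lie more than 1 above the line and miR-329b lies more than 1 below it.

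Some abundant members showed this spread. miR-379, the first miRNA of the array, was at 82.8 and 62.0 CPM in pTDEs and at 7.81 and 184 CPM in mTDEs. Its neighbour miR-411 was at 68.7 and 30.1 CPM in pTDEs and at 11.0 and 97.0 CPM in mTDEs. The mTDE libraries lay on either side of the pTDE libraries for both miRNAs. miR-409, near the end of the array, had the same order, with 48.3 and 72.5 CPM in pTDEs and 11.0 and 85.5 CPM in mTDEs. In limma, the log2 fold change, pTDEs over mTDEs, was 0.85 for miR-379, 0.44 for miR-411 and 0.90 for miR-409, with standard errors from 1.24 to 1.65. With mTDE replicate 1 left out, all 3 values became negative.

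miR-494 was at 104 and 67.3 CPM in pTDEs and at 34.4 and 73.8 CPM in mTDEs. miR-487b was at 48.4 and 79.4 CPM in pTDEs and at 26.6 and 66.1 CPM in mTDEs. The lines overlapped for both. miR-380 was at 49.7 and 52.9 CPM in pTDEs and at 22.6 and 48.9 CPM in mTDEs, so the lines did not overlap, but the closest values differed by less than the spread of the pTDE libraries. The limma log2 fold change was 0.72 ± 0.80 (SE) for miR-494, 0.55 ± 0.88 for miR-487b and 0.61 ± 0.84 for miR-380.

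miR-369 differed most clearly among the abundant members. It was at 80.6 and 82.5 CPM in pTDEs and at 16.2 and 23.6 CPM in mTDEs, and the replicates lay close together in both lines. It averaged 81.5 ± 1.37 CPM over the pTDE libraries and 19.9 ± 5.23 CPM over the mTDE libraries (SD, n = 2 each). Its log2 fold change was 2.004 ± 0.78 (SE), with a limma p of 0.057 and an adjusted p of 0.259, so it did not pass the test over all rows.

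No cluster row differed between the lines in limma at an adjusted p under 0.05. Over all 326 rows tested, 6 did, or 1.84%, all of them higher in mTDEs. By the unadjusted rule of p under 0.05 and a log2 fold change beyond 1, 7 rows were higher in pTDEs, with 10.1% of all rows tested called in that direction, and 0 were lower, with 9.2% of all rows tested called lower. The 7 rows are 5 distinct miRNAs, since miR-376a-1, miR-376a-2 and miR-376a-3 hold the same values. All 7 entered the test only because they were above 0 in both pTDE libraries, and all were at 0 in both mTDE libraries. A difference was therefore required of them, and their number is a description. Of the 27 members tested, 14 entered through the pTDE libraries alone and 0 through the mTDE libraries alone.

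miR-889, in the middle of the array, was at 33.0 and 16.2 CPM in pTDEs, from 208 and 82 reads, and at 0 in both mTDE libraries. cfa_novel_141, whose sequence is given above, was at 33.2 and 13.8 CPM in pTDEs, from 209 and 70 reads, and also at 0 in both mTDE libraries. At the lower pTDE level, 37.8 reads of miR-889 and 32.3 reads of cfa_novel_141 would have stood in the shallower mTDE library. The fitted log2 fold change was 4.60 for miR-889 and 4.49 for cfa_novel_141, and it became 2.51 and 2.42 with a pseudocount of 5 CPM. Both rows entered the test only through pTDEs and had no spread in mTDEs, so these values are descriptions and no support is drawn from their p-values. The mature form of cfa_novel_141 has 21 bases, and the study kept reads of 22 to 30 bases. Adapters were trimmed before this filter, and the effect of the window on the row was not tested.

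Of 24 rows of the whole table at 10 to 35 CPM in both pTDE libraries, 3 were at 0 in both mTDE libraries, namely miR-889, cfa_novel_141 and miR-455, which is not a member and was noticed after its values were seen. Both cluster rows were higher in pTDE replicate 1 than in replicate 2, by 2.03-fold for miR-889 and 2.40-fold for cfa_novel_141. cfa_novel_131, the other predicted miRNA shown above, was at 7.94 and 4.35 CPM in pTDEs and at 6.36 and 28.8 CPM in mTDEs.

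The miR-376a rows were at 13.2 and 2.77 CPM in pTDEs and at 0 in both mTDE libraries. miR-376a is known for adenosine-to-inosine editing of its seed in several tissues, which the deposited values do not resolve. miR-410, the last row of the array in RefSeq order, was at 8.73 and 1.58 CPM in pTDEs and at 0 in mTDEs. miR-487a was at 1.59 and 0.79 CPM, and miR-1185 at 2.86 and 0.40 CPM, in pTDEs, both with 0 in mTDEs. The lower pTDE value of these 4 miRNAs was under the level at which the lowest 10% of the mTDE values ended, so their absence from mTDEs was not resolved. Of the 8 rows above 0 in both pTDE libraries and at 0 in both mTDE libraries, 2 stood over that level, miR-889 and cfa_novel_141. None of these 4 miRNAs had spread in mTDEs, and all entered the test only through pTDEs.

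miR-376c, miR-376b and miR-377 were above 0 in 1 pTDE library each, at 0.79 to 2.38 CPM, and were not tested. miR-377 held the same values as the row of miR-448, and miR-376b the same as that of miR-8854, neither of which is a member. Each match rests on 1 low value, 10 reads for miR-377 and 4 reads for miR-376b. Whether the paired rows share reads was not tested. Together the 11 rows above 0 in pTDEs and at 0 in both mTDE libraries summed to 121 and 43.9 CPM in pTDEs. The 21 remaining rows above 0 summed to 631 and 611 CPM in pTDEs, against 209 and 1039 CPM in mTDEs.

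Members at 0 in both mTDE libraries lay next to members that were above 0 in both. Among members in RefSeq order, and leaving out pairs with a member at 0 in all 4 libraries, 5 such pairs followed each other, namely miR-495 with miR-376a-3, between which cfa-mir-3958 lies, miR-1185 with miR-381, miR-487a with miR-382, miR-377 with miR-409, and miR-409 with miR-410. miR-381 was at 6.36 and 24.9 CPM and miR-382 at 5.21 and 14.6 CPM in mTDEs, with 10.3 and 15.0 CPM and 12.9 and 21.2 CPM in pTDEs. The difference between neighbours was not tested, and the weakness of a 0 in mTDEs given above applies to it.

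miR-329b and miR-432 were the members above 0 in mTDEs whose value was lower in replicate 2 than in replicate 1. miR-329b was at 29.4 and 14.4 CPM in pTDEs, from 185 and 73 reads, and at 6.94 and 0.43 CPM in mTDEs, from 24 reads and 1 read. Its log2 fold change was 2.68 ± 1.17 (SE), with a limma adjusted p of 0.290. The miR-329b hairpin has the close copy miR-329a, which was at 0 in all libraries, and how reads of such copies were shared in the deposited table was not tested.

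In the group near RTL1, 3 of 7 rows were above 0. miR-127, which lies antisense to RTL1 and is fully complementary to its transcript, was at 4.45 and 31.5 CPM in pTDEs and at 14.8 and 151 CPM in mTDEs. The lines overlapped, and each line's libraries differed, by 7.07-fold in pTDEs and 10.2-fold in mTDEs. miR-432, its neighbour, was at 2.54 and 8.91 CPM in pTDEs and at 18.8 and 15.4 CPM in mTDEs, without overlap. miR-433 was at 1.27 and 1.19 CPM in pTDEs and at 0 and 15.4 CPM in mTDEs. The limma log2 fold change was -1.88 ± 1.62 (SE) for miR-127 and -1.61 ± 0.93 for miR-432, with adjusted p of 0.567 and 0.386. The group summed to 8.26 and 41.6 CPM in pTDEs and to 33.6 and 181 CPM in mTDEs.

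The array summed to 744 and 613 CPM in pTDEs and to 175 and 857 CPM in mTDEs. Of the array, only miR-495 had both mTDE values above both pTDE values, with 21.1 and 13.5 CPM in pTDEs and 26.9 and 46.8 CPM in mTDEs. Its log2 fold change was -1.03 ± 0.88 (SE), with a limma adjusted p of 0.563.

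Counted without a test, 11 of the 32 rows above 0 (34.4%) were higher in both pTDE libraries than in both mTDE libraries, and 2 (6.25%), miR-432 and miR-495, were lower. Over all 461 rows above 0, the shares were 18.4% and 19.3%. The 11 rows were miR-889, cfa_novel_141, the 3 rows of miR-376a, miR-410, miR-1185, miR-487a, miR-329b, miR-369 and miR-380, which are 9 distinct miRNAs, and 8 of these rows were at 0 in both mTDE libraries.

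**Figure D4:**
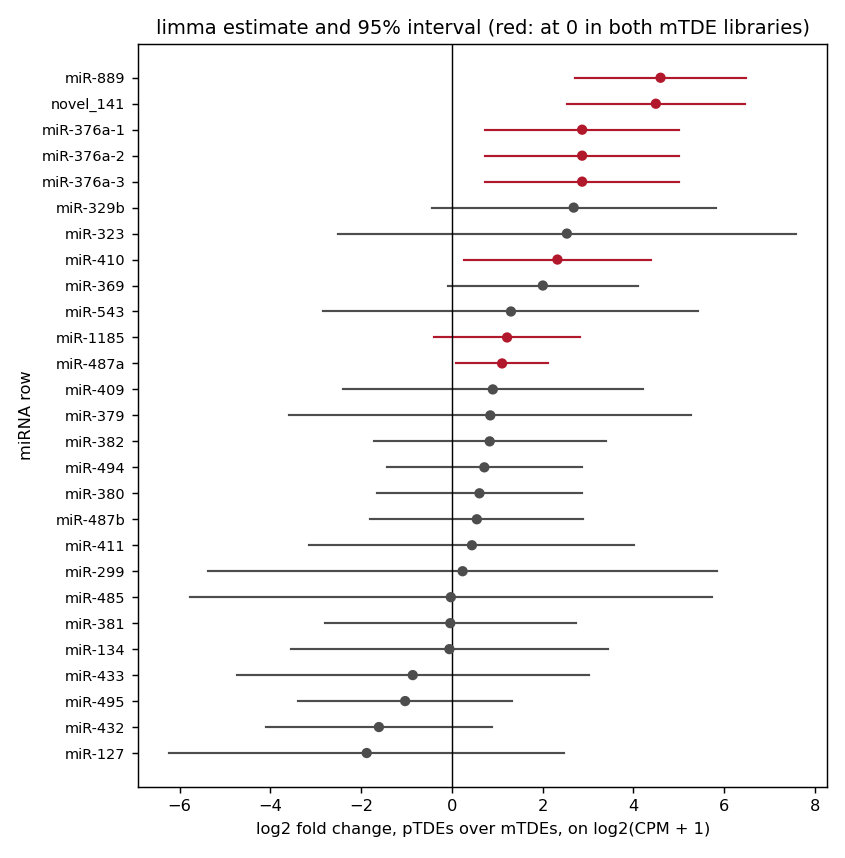
Log2 fold change, pTDEs over mTDEs, on the log2(CPM + 1) scale (horizontal axis) for the 27 cluster rows tested (vertical axis), as limma estimates with 95% intervals. Rows in red were at 0 in both mTDE libraries and entered only through pTDEs, so their intervals hold no mTDE spread, and the intervals of all rows in gray include 0.

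The remaining members tested were miR-134, miR-299, miR-323, miR-381, miR-382, miR-433, miR-485 and miR-543. Their unadjusted p-values all missed the threshold, and 6 of them were at 0 in mTDE replicate 1. miR-323 was at 38.1 and 26.7 CPM in pTDEs and at 0 and 31.3 CPM in mTDEs. miR-485 was at 13.3 and 2.37 CPM in pTDEs and at 0 and 48.9 CPM in mTDEs. miR-134, a regulator of dendritic spine size in neurons, was at 0.79 and 3.96 CPM in pTDEs and at 0 and 8.58 CPM in mTDEs. For each of these 3 miRNAs the lines overlapped.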

How the data were processed

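Small RNA of EVs was sequenced in 2 CHMp and 2 CHMm libraries. Per the study's methods, the authors trimmed reads with cutadapt, kept reads of 22 to 30 bases, merged forward and reverse reads, predicted miRNAs with miRDeep2, quantified them on CanFam3.1 and compared lines with edgeR. Versions, and which library ran on which of the instruments, are not given in the sources used here. A miRNA outside the length window would be undercounted, and merged mates count a fragment more than once. Of the values up to 100 reads, 66.0% to 82.1% were even numbers of reads.

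The deposited per-library values are whole numbers, treated as a score, since their low values are unevenly spaced. CPM was recovered as 2 to the power of (value/s), minus 1, with s set so that a library totals 1000000. The worth of 1 read was the largest step of which all values under 20 CPM were whole multiples within rounding, and 100% were, within 0.1 step. The deposited log2 fold change and average log2 CPM, likelihood ratio score, p-value and false discovery rate of the authors' comparison were not used.

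limma 3.58.1 (R 4.3.3; eBayes with trend) was fitted to log2(CPM + 1) of the 326 rows above 0 in both libraries of a line, with Benjamini-Hochberg adjustment over them. Fold changes on this scale understate those of low rows. Prior degrees of freedom were 2.4 and residual ones 2. Conversion and summaries used Python 3.11.15, numpy 2.4.6, pandas 2.3.3 and scipy 1.17.1, and were tested on simulated data. Limits of 3 reads cover counting error only. Full values are given for the 6 highest members of each line, members at an unadjusted p under 0.05, and members above 3 reads in both libraries of only 1 line with a mean of at least 10 CPM. Others, the distribution of low values and the marker sums with equal rows counted once were added after values were seen. The members, lists and rules were chosen with earlier results of these data known. Sequences and precursor positions come from the study's supplementary tables, and gene order from RefSeq. Mature sequences of the known members were not used here.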

Additional observations from a re-analysis of the deposited data

How the results depend on the processing

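The spread between the mTDE libraries limits most results. Thinning every library to the reads of the shallowest left 27 rows above 0 in both pTDE and 13 in both mTDE libraries. The count of cluster rows higher in pTDEs at an adjusted p under 0.05, 0, became 6 when 0.1 CPM was added before the logarithm in place of 1, and 9 when the deposited score itself was read as CPM. It was 2 after median-ratio scaling, 1 when eBayes used no trend, 2 in voom and 1 if predicted miRNAs were dropped. Over all rows tested, the calls in the same direction went from 0 to 28, 39, 5, 4, 5 and 4 in these 6 fits. With a library left out it ranged from 0 to 8, and the 8, of 37 calls over all rows, came without either pTDE library, where mTDE rows at 0 in both libraries have no spread of their own and the lone pTDE library is assumed to vary like the mTDE libraries. In the direction higher in mTDEs the count was 0 in every fit. The unadjusted count, 7, became 2 when 5 CPM was added, 3 when rows seen in any library entered, 3 when the mean had to reach 10 CPM and 4 when copies with equal values were merged, while over all rows 33 calls became 12, 13, 9 and 24. The unadjusted count is not given with a library left out, since the lone library of a line is then assumed to vary like the other line. In the opposite direction the unadjusted count was 0 in every fit with all 4 libraries. Rows above 0 in both pTDE libraries fell from 27 to 14 at a minimum of 10 CPM. Those in both mTDE libraries ranged from 13 to 21 with a library left out, 21 being the count of mTDE replicate 2 alone. Median-ratio size factors moved the median log2 fold change of all rows tested from -0.03 to 0.22.

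With a library left out, the log2 fold change ranged from -1.35 to 3.04 for miR-379, from -1.07 to 1.96 for miR-411, from -0.52 to 2.33 for miR-409 and from -0.090 to 1.19 for miR-487b. Of the 27 rows tested, the sign changed with a library left out in 10 and in another fit in 5. The replicate numbers were not shown to pair the samples. Over the 326 rows tested, the differences between replicates 2 and 1 correlated at 0.15 between the lines. With the replicate block, 0 members passed the adjusted threshold and 6 the unadjusted rule, all 6 higher in pTDEs. Over all 326 rows, 0 higher in pTDEs and 7 higher in mTDEs passed the adjusted threshold. The unadjusted rule called 27 higher in pTDEs and 31 higher in mTDEs. The cause of these shifts was not tested.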

Other observations

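cfa-mir-3958, which lies between miR-495 and miR-376a-3 in the RefSeq order but is not among the listed numbers, was at 24.9 and 12.5 CPM in pTDEs and at 3.47 and 25.7 CPM in mTDEs. cfa_novel_27, a predicted miRNA of the same locus, was at 9.21 and 1.98 CPM in pTDEs and at 0 and 24.0 CPM in mTDEs. Both were highest in mTDE replicate 2 and lowest in mTDE replicate 1. cfa_novel_111, also predicted in the locus, went the other way between the mTDE libraries. It was at 0 and 3.76 CPM in pTDEs and at 2.31 and 0 CPM in mTDEs. Its seed is listed with the prediction as that of human miR-431-5p. miR-335, from another imprinted locus, was at 13.2 and 16.2 CPM in pTDEs and at 4.63 and 74.7 CPM in mTDEs. cfa_novel_117, predicted on the minus strand close to cfa_novel_141, was at 0 in all libraries but mTDE replicate 2, where it was at 11.2 CPM.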
